A study of Homo sapiens with 6 samples.

Results

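The BCL2 family was described here through 10 genes in 2 human lymphoma lines, chosen by name from a table of 25277 gene rows, and all 10 have a row. They are 4 anti-apoptotic members (BCL2, BCL2L1, MCL1 and BCL2A1), 2 effectors (BAX and BAK1) and 4 BH3-only members (BCL2L11, BBC3, PMAIP1 and BID). The study concerns NR4A1, a nuclear receptor, in mantle cell lymphoma, a B-cell cancer, and its joint inhibition with ibrutinib, a drug that blocks the kinase BTK. RNA was sequenced from the lines Jeko and Rec-1, both made to carry Cas9 and a tet-on vector that was either empty (the control) or encoded a guide RNA (sgRNA) against NR4A1. All 6 libraries, controls included, came from cells given doxycycline for 48 h. Each line gave 1 control library, 1 with sgRNA 1 and 1 with sgRNA 2. The labels do not say whether a stable line was 1 clone or a pool, or whether sgRNA 1 has the same sequence in both lines. Values are FPKM, fragments scaled by transcript length and library size, so levels of different genes can be set side by side. In such bulk samples, fewer cells with a transcript and less of it per cell cannot be told apart.

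BCL2 family proteins decide whether the outer mitochondrial membrane is opened. BAX and BAK1 form the pores that release cytochrome c. BCL2, BCL2L1 (BCL-XL), MCL1 and BCL2A1 (BFL-1) hold the effectors and their activators in check, and the BH3-only proteins BCL2L11 (BIM), BBC3 (PUMA), PMAIP1 (NOXA) and BID oppose the anti-apoptotic members or activate the effectors directly. PMAIP1 binds mainly MCL1 and BCL2A1, while BCL2L11 and BBC3 bind all anti-apoptotic members. Lymphomas of mature B cells often depend on BCL2 or MCL1, and BCL2 is the target of the drug venetoclax. NR4A1 protein has been described to bind BCL2 itself, and BCL2L11 deletion is a recurrent lesion of mantle cell lymphoma. DNA copy number was not measured here.

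The 250 bases before the RefSeq transcription start are printed for the 2 members found at or near 0 in some libraries, BCL2L11 and BCL2A1, and for BAX, the effector whose level differed most. They come from RefSeq on GRCh38.p14, in which 9 of the 10 members had an entry (not MCL1), and are read on the gene's own strand. No matches overlap one another. Capitals mark matches on either strand to GTAAACA (the core bound by FOXO factors), GGGCGG (the GC box), TATAAA (the TATA box) and CACGTG (the E-box bound by MYC and USF factors), motifs chosen with these sequences in view.
BCL2L11, chr2:111120664-111120913, plus strand: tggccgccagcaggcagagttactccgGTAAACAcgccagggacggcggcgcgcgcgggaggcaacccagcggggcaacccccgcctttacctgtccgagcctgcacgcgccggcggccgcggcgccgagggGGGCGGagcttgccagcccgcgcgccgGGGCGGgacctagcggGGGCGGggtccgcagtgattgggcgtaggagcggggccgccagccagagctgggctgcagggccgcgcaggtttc
BCL2A1, chr15:79971197-79971446, minus strand: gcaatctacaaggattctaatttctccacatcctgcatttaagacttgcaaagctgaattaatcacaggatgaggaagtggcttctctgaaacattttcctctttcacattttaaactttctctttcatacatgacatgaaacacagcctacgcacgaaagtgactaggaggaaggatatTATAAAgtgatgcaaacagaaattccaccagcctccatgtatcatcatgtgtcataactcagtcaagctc
BAX, chr19:48954625-48954874, plus strand: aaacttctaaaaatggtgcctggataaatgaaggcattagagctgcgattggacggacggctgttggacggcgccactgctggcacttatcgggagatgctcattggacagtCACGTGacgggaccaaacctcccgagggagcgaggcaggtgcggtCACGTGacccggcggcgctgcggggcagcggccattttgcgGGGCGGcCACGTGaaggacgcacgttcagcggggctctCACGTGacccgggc
The BCL2L11 window held 34 CpG, more than 93.2% of the 35114 RefSeq windows of this length, with 3 GC boxes and 1 FOXO core. That of BCL2A1 held 2 CpG, where the median window has 11, and 1 TATA box. The BAX window held 4 E-boxes and 1 GC box. A FOXO core lies in 2.98% of all windows, a GC box in 42.6%, a TATA box in 10.7% and an E-box in 6.35%, while 0.0142% hold 4 or more E-boxes. A match describes the letters and does not show binding.

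NR4A1, the targeted gene, was at 5.99 FPKM in the Jeko control and at 3.89 and 4.44 in the libraries labelled sgRNA 1 and 2. In Rec-1 it was at 11.6 in the library labelled control and at 27.4 and 12.7 in those labelled sgRNA 1 and 2, so its mRNA was not lower in the latter pair and every direction below rests on the labels. The Rec-1 control stood with Jeko: across 9702 protein-coding genes, which are not independent replicates, Pearson's r was 0.989 against the Jeko control but 0.805 and 0.812 against the Rec-1 guides 1 and 2. The B-cell markers MS4A1, CD79A, CD79B, PAX5 and CD22 were at 3.57 FPKM or more in every library. CCND1 (cyclin D1), which defines most mantle cell lymphomas, ranged from 442 to 815 FPKM over Jeko and the Rec-1 control but was at 0.696 and 0.592 in Rec-1 sgRNA 1 and 2. Summed T-cell markers (CD3D, CD3E, CD3G, CD2) were between 2.11 and 5.43 FPKM in those 4 libraries and at 102 and 119.8 in the Rec-1 sgRNA pair, with CD2 at 0.0291 or less throughout. SDC1 and PRDM1 summed to between 15.2 and 29.4 in the 4 and to 2.60 and 2.81 in the pair. The other mantle cell marker SOX11 had 7.11 to 11.1 FPKM in the 4 and 3.60 and 2.45 in the pair, and CD5 had 0.0785 or less in all 6. The 3 natural killer markers summed to between 0.856 and 2.07 in the 4 and to 6.70 and 7.21 in the pair. Of these NKG7 alone had 6.44 and 6.97 in the pair, with NCAM1 and KLRD1 at 0.265 or less throughout. The 3 fibroblast markers summed to between 1.21 and 3.37 and to 0.0393 or less, all from COL1A1, as COL1A2 and DCN were listed at 0 throughout. The 4 epithelial markers summed to 0.373 or less throughout. The erythroid gene HBB was listed at 0, and the 3 myeloid markers summed to 1.97 or less. The part of these library differences in the results below was not tested. For the members, the fit over both lines is given with and without the Rec-1 control. Without it, the Jeko libraries alone set the sgRNA difference. The other comparisons that use this control are given only with it.

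Among the anti-apoptotic genes, BCL2 (chromosome 18, 60790579 to 60987361, GRCh37, minus strand) differed most between guides. It stood at 39.1 FPKM in the Jeko control, 46.6 in Jeko sgRNA 1 and 86.8 in Jeko sgRNA 2, and at 38.6 in the Rec-1 control, 19.3 in Rec-1 sgRNA 1 and 8.23 in Rec-1 sgRNA 2. Both Jeko guides were above their control and both Rec-1 guides below theirs, in each line more so with guide 2. BCL2L1 (chromosome 20, 30252255 to 30311792, minus strand) had 53.8 FPKM without a guide in Jeko and 36.96 and 38.97 with guides 1 and 2. In Rec-1 the same libraries had 45.3, 17.2 and 17.7 FPKM. All 4 sgRNA libraries were below their own control, and guides of the same line were close to each other.

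MCL1 (chromosome 1, 150533371 to 150552214, minus strand), which encodes a short-lived protein, varied least of the abundant anti-apoptotic genes. It was at 66.3, 70.3 and 63.1 FPKM in the Jeko control, sgRNA 1 and sgRNA 2, and at 76.3, 44.7 and 48.3 in the matching Rec-1 libraries. The Jeko guides lay on either side of their control and both Rec-1 guides below theirs. BCL2A1 (chromosome 15, 80253234 to 80263538, minus strand), an NF-κB target, was listed at 0 in the Jeko control and Jeko sgRNA 1, at 0.0513 FPKM with Jeko guide 2 and at 0.0514 in the Rec-1 control, but at 4.42 and 6.32 with Rec-1 guides 1 and 2. Genes used by every cell, such as EEF1A1 and RPS18, are also listed at 0 in all 6 libraries, so a listed 0 need not mean absence.

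Of the effectors, BAX (chromosome 19, 49458072 to 49465055, plus strand) was the more abundant in every library. In Jeko it had 151.9 FPKM in the control, 165 with guide 1 and 91.6 with guide 2. In Rec-1 it had 126 FPKM in the control, 44.003 with guide 1 and 37.4 with guide 2. BAK1 (chromosome 6, 33540324 to 33548070, minus strand) was at 17.2, 12.3 and 8.97 FPKM in the Jeko libraries and at 18.6, 17.5 and 25.7 in the Rec-1 libraries, in the same order of control, sgRNA 1 and sgRNA 2. The ratio of BAX to BAK1 ranged from 6.77 to 13.4 over the 3 Jeko libraries and the Rec-1 control, and was 2.52 and 1.46 in Rec-1 sgRNA 1 and 2.

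The BH3-only gene with the sharpest pattern was BCL2L11 (chromosome 2, 111876955 to 111926021, plus strand), whose promoter is printed above. It was at 0.0513, 0.0561 and 0.0296 FPKM in the Jeko control, sgRNA 1 and sgRNA 2, at 0.0148 in the Rec-1 control, and at 11.1 and 10.7 in Rec-1 sgRNA 1 and 2. The library labelled Rec-1 control thus lay with the Jeko libraries and apart from the Rec-1 guides. Multiplied by the libraries' relative depth, the low values of Jeko sgRNA 1, Jeko sgRNA 2 and the Rec-1 control stood at 3.0, 2.0 and 1.0 times the lowest of them, and that of the Jeko control at 3.15 times. For BCL2A1 the 2 low values were equal on this scale, to 2 decimals. Steps near whole numbers are what single fragments give, though the absolute number of fragments is not known.

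PMAIP1 (chromosome 18, 57567228 to 57571537, plus strand), a gene induced by cellular stress, had the highest FPKM of the 10 in every library. It was at 317 FPKM in the Jeko control, 226 in Jeko sgRNA 1 and 443 in Jeko sgRNA 2, and at 375 in the Rec-1 control, 80.1 in Rec-1 sgRNA 1 and 148 in Rec-1 sgRNA 2. BBC3 (chromosome 19, 47724079 to 47736023, minus strand), a gene induced by DNA damage, was at 20.1, 20.9 and 18.2 FPKM in the Jeko control, sgRNA 1 and sgRNA 2 and at 24.5, 14.8 and 10.5 in the matching Rec-1 libraries. BID (chromosome 22, 18216904 to 18257536, minus strand), which caspase-8 cleaves into its active form, was at 26.6, 19.4 and 13.4 FPKM in Jeko and at 17.05, 16.5 and 19.7 in Rec-1. BID and BAK1 had in common that both Jeko guides were below the Jeko control while the Rec-1 guides lay on either side of theirs.

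**Figure D1:**
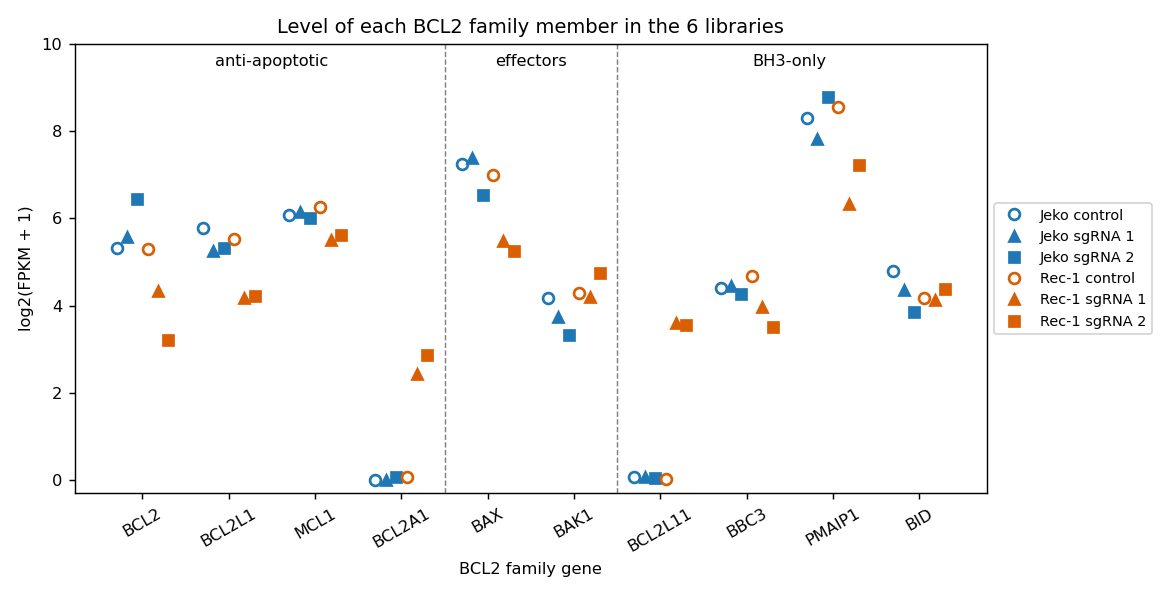
Level of each member, as log2(FPKM + 1), in the 6 libraries; colour gives the labelled line, open circles the controls, triangles guide 1 and squares guide 2, with 1 library per point. BCL2A1 and BCL2L11 lie near 0 in the 3 Jeko libraries and the Rec-1 control and are raised in the 2 Rec-1 sgRNA libraries, where they have between 4.42 and 11.1 FPKM.

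Summed by role, the anti-apoptotic genes came to 159, 153.9 and 189 FPKM in the Jeko control, sgRNA 1 and sgRNA 2, to 160.2 in the Rec-1 control, and to 85.6 and 80.5 with Rec-1 guides 1 and 2. The effectors came to 169, 178, 101 and 145 FPKM in the first 4 of these libraries and to 61.5 and 63.1 in the Rec-1 sgRNA pair. The BH3-only genes came to 363, 267, 475 and 417 FPKM and to 123 and 189. All 3 sums were therefore lowest in the Rec-1 sgRNA pair. No p-value is given for these sums, and all comparisons of them are descriptions.

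The balance, taken as the ratio of effector plus BH3-only FPKM to anti-apoptotic FPKM, does not depend on how a library is scaled. It was 3.34 in the Jeko control, 2.89 in Jeko sgRNA 1 and 3.05 in Jeko sgRNA 2, and 3.51 in the Rec-1 control, 2.15 in Rec-1 sgRNA 1 and 3.13 in Rec-1 sgRNA 2. In all 4 sgRNA libraries it was below that of the own-line control, an order that did not hold under other definitions of the ratio given below. PMAIP1 alone made up between 29.7% (Rec-1 sgRNA 1) and 58.0% (Jeko sgRNA 2) of the FPKM of the 10. With PMAIP1 left out, the ratio was 1.36, 1.42 and 0.699 in the Jeko control, sgRNA 1 and sgRNA 2 and 1.16, 1.21 and 1.29 in Rec-1. The order then changed: Jeko sgRNA 2 alone was below its control.

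The make-up of each role also differed. MCL1 held the largest share of anti-apoptotic FPKM in 5 of the 6 libraries, from 41.6% in the Jeko control to 59.9% in Rec-1 sgRNA 2. In Jeko sgRNA 2 the largest share was that of BCL2, at 46.0% against 33.4% for MCL1. BCL2 had 24.6% in the Jeko control and 30.3% in Jeko sgRNA 1, and 24.1%, 22.6% and 10.2% in the Rec-1 control, sgRNA 1 and sgRNA 2. BCL2A1 reached 5.17% and 7.85% in Rec-1 sgRNA 1 and 2 and was at 0.0321% or less elsewhere. Within the BH3-only sum, BCL2L11 reached 9.05% and 5.68% in Rec-1 sgRNA 1 and 2, against 0.0210% or less in the other 4 libraries. The ratio of BCL2 to BAX was 0.258, 0.282 and 0.948 in the Jeko control, sgRNA 1 and sgRNA 2 and 0.305, 0.439 and 0.220 in the matching Rec-1 libraries, so Jeko sgRNA 2 stood apart from the other 5.

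**Figure D2:**
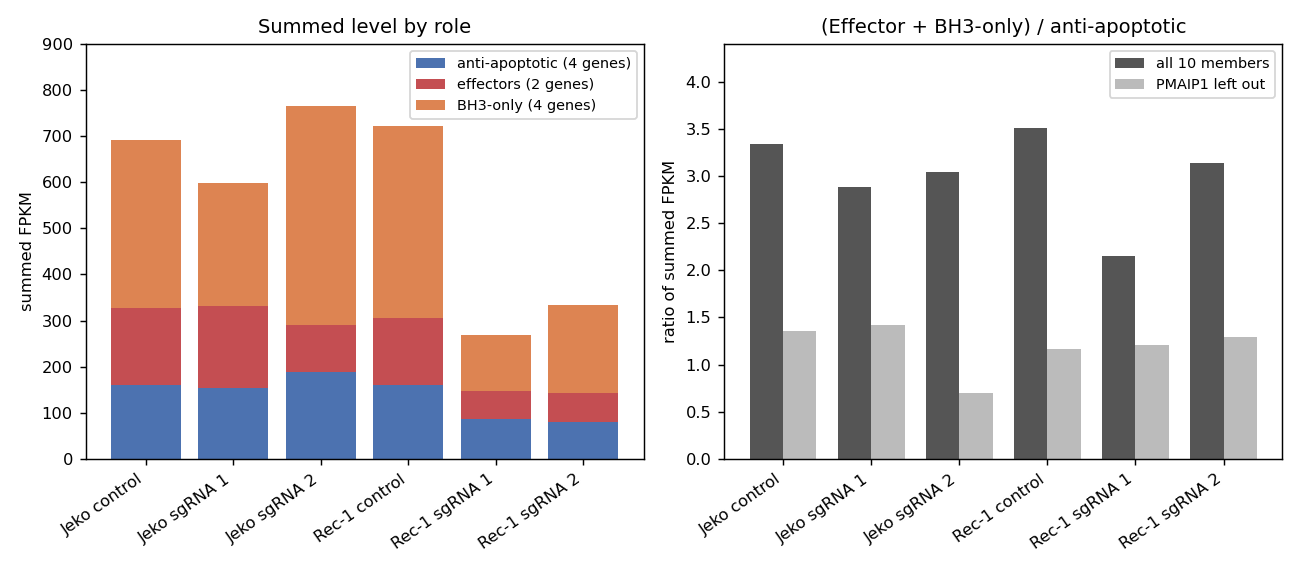
Left, summed FPKM of anti-apoptotic, effector and BH3-only members in each of the 6 libraries; right, the ratio of effector plus BH3-only to anti-apoptotic FPKM with all 10 members (dark) and without PMAIP1 (light), each bar being 1 library. With PMAIP1 left out the lowest ratio is 0.699, in Jeko sgRNA 2.

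Whether targeting NR4A1 altered these genes was asked first over both lines, 4 sgRNA against 2 control libraries with the line as covariate. No member passed the test: limma called 0 of the 10 at an adjusted p under 0.05, where it called 28 of 11400 genes tested, or 0.246%. BCL2L1 alone of the 10 had an unadjusted p under 0.05, as did 21.1% of all genes. Its log2(FPKM + 1) difference, sgRNA minus control, was −0.91 (SE 0.24, limma adjusted p 0.180), lower in 4 of 4 sgRNA libraries than in the own-line control. Both guides of a line were lower at 36.4% of tested genes in Jeko and at 43.1% in Rec-1, so such agreement was common. The median difference of the 10 was −0.38 against 0.0079 over all tested genes, with 8 members below 0. All 10 passed the filter of a mean of at least 1 FPKM, BCL2A1 and BCL2L11 only through the Rec-1 sgRNA libraries, so those 2 had to differ and their p-values and counts below support nothing.

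With the line as covariate and a line's only control left out, the difference in that fit comes from the other line alone. Without the library labelled Rec-1 control, the Jeko libraries thus gave 0.69 for BCL2, against −0.42 in the full fit. They gave 0.0064 for MCL1, −0.012 for BCL2L11 and 0.0017 for PMAIP1, each with the opposite sign to the full fit. The difference stayed below 0 for BCL2L1 at −0.49, BAX at −0.30, BBC3 at −0.043, BAK1 at −0.66 and BID at −0.69. For BCL2A1 it fell to 0.036, from 1.31. Without the Jeko control, both Rec-1 guides against the library labelled Rec-1 control, which stood with Jeko, gave −1.33 for BCL2L1. They gave 2.58 for BCL2A1 and 3.55 for BCL2L11, both selected by the filter. BAK1 and BID changed sign, to 0.18 and 0.079. The guides were treated as replicates of their line, and the p-values measure the spread between these libraries.

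Within Jeko, no member had both guides 2-fold or more to the same side of the control, where 3.04% of tested genes did. At any size both Jeko guides were lower at 3 members (BCL2L1, BAK1 and BID), as at 36.4% of genes, and higher at 1 (BCL2), as at 36.9%. With guides 1 and 2, BCL2 differed by 0.25 and 1.13 on the log2(FPKM + 1) scale, BCL2L1 by −0.53 and −0.45, BAK1 by −0.45 and −0.87, and BID by −0.44 and −0.94. Against the library labelled Rec-1 control, 5 members had both Rec-1 guides 2-fold or more to the same side, where 23.3% of tested genes did (11.9% higher, 11.4% lower). At any size both were lower at 6 members, as at 43.1% of genes, and higher at 2, as at 41.8%. BCL2L11 (3.57 and 3.53 with sgRNA 1 and 2) and BCL2A1 (2.37 and 2.80), both selected by the filter, were higher. BAX (−1.4999 and −1.73), BCL2L1 (−1.35 and −1.31) and PMAIP1 (−2.21 and −1.33) were lower. BCL2 was just short of that with sgRNA 1, at −0.96, and past it with sgRNA 2, at −2.10. With 1 control per line these are descriptions.

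**Figure D3:**
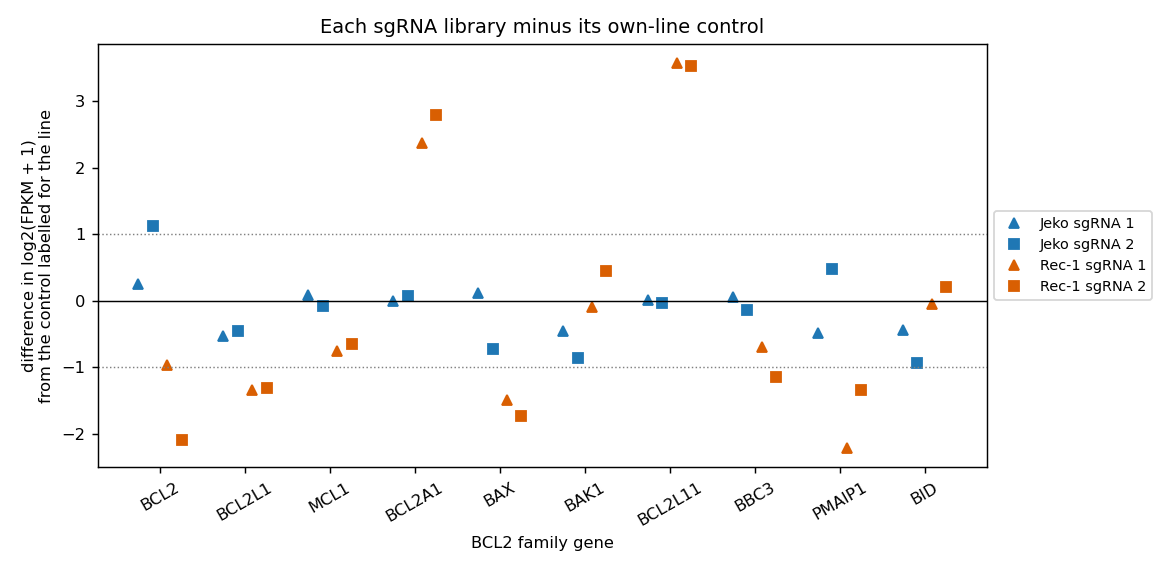
Difference in log2(FPKM + 1) of each sgRNA library from the control labelled for its line, for the 10 members; triangles are guide 1, squares guide 2, and dotted lines mark 2-fold. In Jeko no member has both guides past the same dotted line, and in Rec-1 5 do, among them BCL2A1 and BCL2L11, which were selected by the filter.

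The difference between the lines in the sgRNA effect was then tested. The interaction was past the limma threshold at BCL2L11 (3.57, SE 0.22, adjusted p 0.00809) and BCL2A1 (2.55, SE 0.34, adjusted p 0.0311), where 6.94% of all genes were, 3.68% as higher. These are the 2 members that entered through the Rec-1 sgRNA pair, so the values are a description. With no filter on low values the limma adjusted p was 0.0197 for BCL2L11 and 0.0593 for BCL2A1. None of the other 8 members passed. The interaction cannot be fitted without the Rec-1 control, in which both genes are near 0. BCL2 had an interaction of −2.22 (SE 0.92, limma adjusted p 0.271) with guides of the 2 lines on opposite sides of their controls. Without Jeko sgRNA 2 the limma adjusted p of BCL2L11 was 0.0511, and without Jeko sgRNA 1 or 2 that of BCL2A1 was 0.134 and 0.132.

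Between the lines with sgRNA, a contrast that uses no control in its means, 3 of the 8 members not selected by the filter passed the limma threshold, all lower in Rec-1, where 25.9% of tested genes passed, 12.8% higher and 13% lower. An unadjusted p under 0.05 was reached by 8 of all 10 members, the 2 selected by the filter included, and by 42.3% of genes. The levels with Jeko guides and Rec-1 guides were 37.96 ± 1.42 and 17.4 ± 0.399 FPKM for BCL2L1, 66.7 ± 28.4 and 13.8 ± 7.85 for BCL2, and 128 ± 52.1 and 40.7 ± 4.66 for BAX (mean ± SD, n = 2 in each). All 3 were lower in Rec-1, with log2(FPKM + 1) differences of −1.08 (SE 0.17, limma adjusted p 0.0197) for BCL2L1, −1.58 (SE 0.35, adjusted p 0.0430) for BAX and −2.24 (SE 0.53, adjusted p 0.0497) for BCL2. As a description, BCL2L11 was higher in Rec-1 by 3.51 (SE 0.13) and BCL2A1 by 2.62 (SE 0.20), with limma adjusted p of 0.00590 and 0.0120 when no filter on low values was used. The Jeko and Rec-1 sgRNA libraries did not overlap at 9 of the 10 members, where they did not at 69.9% of tested genes. The 9 include BCL2L11 and BCL2A1, for which the filter had fixed this in advance.

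With a pseudocount of 0.1 in place of 1 the difference was 6.28 for BCL2L11 and 5.45 for BCL2A1. The calls of BCL2L1, BAX and BCL2 each ended when any of the 4 sgRNA libraries was left out, with limma adjusted p from 0.0927 to 0.109, from 0.0582 to 0.183 and from 0.109 to 0.198. BCL2 passed under 4 of 13 alternatives. BAX was also lost with no filter (limma adjusted p 0.0788) and with a mean of at least 5 FPKM (0.0518).

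The remaining 5 members did not pass the same contrast. PMAIP1 was at 335 ± 153 FPKM with Jeko guides and 114 ± 48.2 with Rec-1 guides (mean ± SD, n = 2 in each; log2 difference −1.53, SE 0.48, limma adjusted p 0.0903). BAK1 was at 10.6 ± 2.35 and 21.6 ± 5.82 (0.95, SE 0.28, adjusted p 0.0805 by limma). MCL1 differed by −0.51 (SE 0.18, limma adjusted p 0.108) and BBC3 by −0.61 (SE 0.24, adjusted p 0.135). For BID the libraries of the lines overlapped (0.16, SE 0.25, limma adjusted p 0.672). With the fit restricted to protein-coding genes, BAK1 and PMAIP1 passed (limma adjusted p 0.0414 and 0.0335). Set against all 4 other libraries, both Rec-1 sgRNA libraries lay outside their range at 8 of the 10 members, 2 above and 6 below, where 56.1% of tested genes do so, 27% above and 29.1% below. The 2 above are those selected by the filter.

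**Figure D4:**
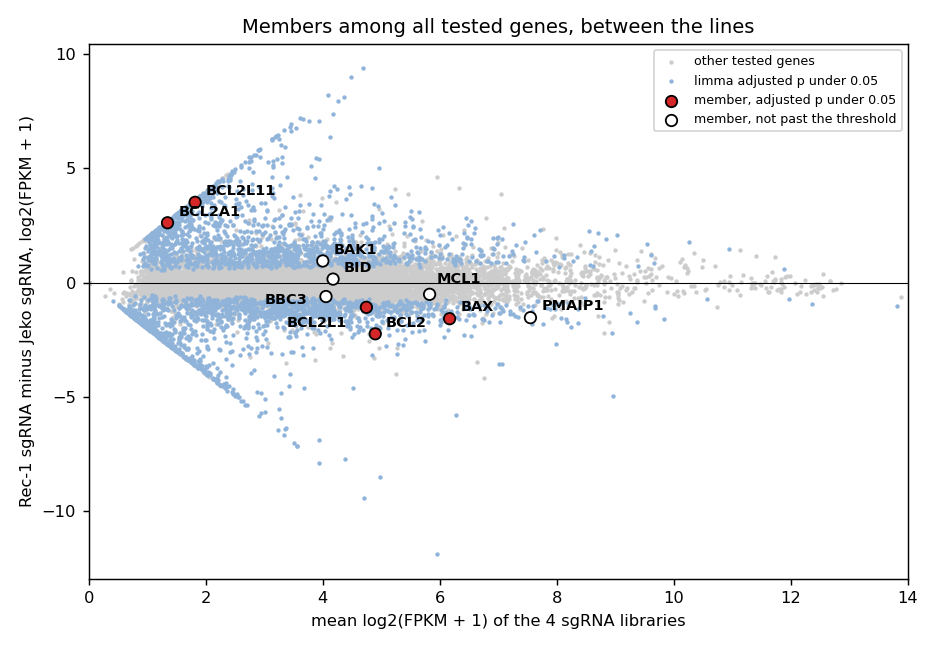
Difference between Rec-1 and Jeko sgRNA libraries in log2(FPKM + 1) against the mean level of the 4, for 11400 tested genes; members are large points, red where the limma adjusted p is under 0.05, and the spokes at low level are genes near 0 in either line. BCL2A1 and BCL2L11 lie on the upper spoke, at 2.62 and 3.51.

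Guide 2 was compared with guide 1 over the lines. The guides differed from each other by 2-fold or more at 4.68% of tested genes in Jeko and 3.88% in Rec-1, and the controls at 2.51%. Limma called 0 of 11400 genes, with 656 at an unadjusted p under 0.05, or 5.75%. PMAIP1 was the only member with such a p: it was 1.96 times as high with guide 2 as with guide 1 in Jeko and 1.85 times in Rec-1 (log2 difference 0.92, SE 0.17, limma adjusted p 0.715). For BCL2 the ratio was 1.86 in Jeko and 0.426 in Rec-1, and for BAX 0.554 and 0.850. BCL2L1, by contrast, had ratios of 1.05 and 1.03. The controls of the lines differed by between −0.26 and 0.27 on the log2(FPKM + 1) scale at the members other than BID, for which the Rec-1 control was lower by 0.61.

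The genes beside BCL2L11 were examined because its transcript was near 0 in 4 libraries. ACOXL, which ends 830 bases before it, was at 0.145 FPKM or less in all 6 libraries, the Rec-1 sgRNA pair included. BUB1, a mitotic checkpoint kinase 441315 bases before it, was at 150.8, 263, 161, 137, 38.8 and 42.2 FPKM in the Jeko control, sgRNA 1 and sgRNA 2 and the Rec-1 control, sgRNA 1 and sgRNA 2. ANAPC1, a subunit of the anaphase-promoting complex 443195 bases after it, was between 10.3 and 16.9 FPKM in the 6 libraries. MERTK and TMEM87B, farther on the same side, were between 0.166 and 1.15 and between 5.51 and 14.8 FPKM, and RGPD6, a gene of a family of near-identical copies, was at 1.28e-05 or listed at 0. ACOXL was thus low in every library, and no gene of the 6 had the levels of BCL2L11, near 0 in 4 libraries and raised in the Rec-1 sgRNA pair.

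**Figure D5:**
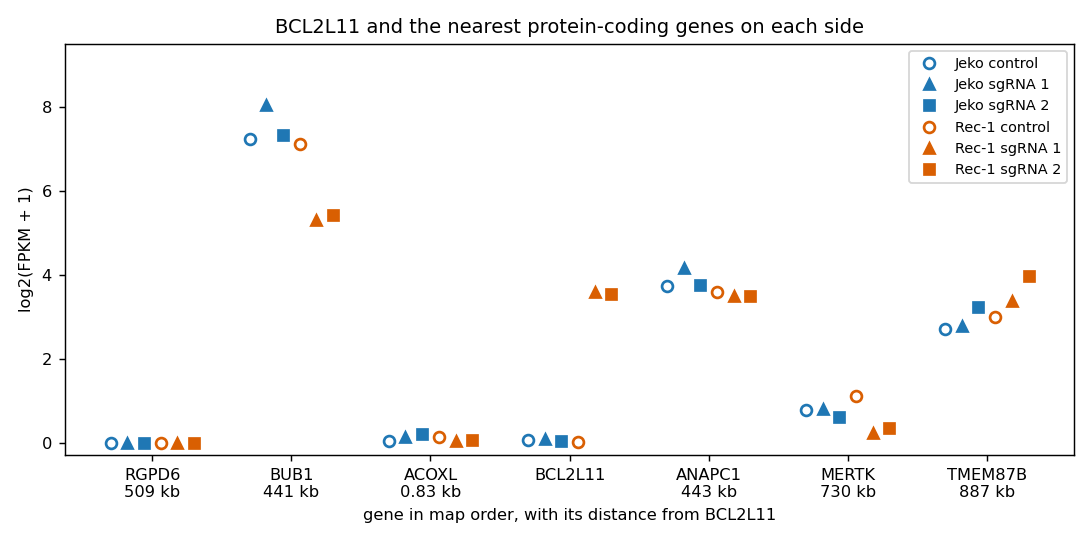
Level, as log2(FPKM + 1), of BCL2L11 and of the 3 nearest protein-coding genes on each side in the 6 libraries, in map order with distances; symbols as in the plot of the members. BUB1 and ANAPC1 are above 3 in every library, and BCL2L11 only in the Rec-1 sgRNA pair.

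Other genes rose and fell with BCL2L11, a likeness that takes no account of level. Over the 6 libraries, 270 of 9701 other protein-coding genes had a Pearson correlation above 0.99 with it, and the 3 closest were DOCK8, SPOCK2 and ASB2 (each 1.00 to 2 decimals). For BCL2A1 there were 209 such genes, led by ZCCHC14, TSLP and TNFSF8. The genes named for BCL2L11 and BCL2A1 were at 0.199 FPKM or less in Jeko and the Rec-1 control. They too passed the filter only through the Rec-1 sgRNA pair. For BCL2 there were 3 genes above 0.99, RPL27, NPHP4 and SCLT1 (0.992, 0.991 and 0.991). These are descriptions over 6 points, of which the Rec-1 sgRNA pair sets most of the spread.

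Of 11 other family genes, 7 passed the filter, and 2 were called between Rec-1 and Jeko sgRNA libraries, both higher in Rec-1, where 25.9% of all genes were called and 12.8% as higher. One of the 2, BCL2L2, passed the filter only through the Rec-1 sgRNA pair, so its value is a description. BIK, a BH3-only gene, was at 7.53, 4.67 and 1.97 FPKM in the Jeko control, sgRNA 1 and sgRNA 2 and at 7.60, 26.7 and 29.6 in the matching Rec-1 libraries (log2 difference 2.83, SE 0.36, limma adjusted p 0.0136). The call of BIK was lost under at least 1 alternative processing. BCL2L2 (BCL-w), an anti-apoptotic member whose reads can also come from the BCL2L2-PABPN1 readthrough, was at 1.07 FPKM or less in Jeko and the Rec-1 control and at 4.79 and 5.95 with the Rec-1 guides (2.11, SE 0.38). The BH3-only BMF was at 9.47 and 31.8 FPKM with Jeko sgRNA 1 and 2 and 24.4 and 34.0 with Rec-1 sgRNA 1 and 2, and BAD was between 21.2 and 39.4 in the 6 libraries. HRK had the lowest difference of this list (−0.081, SE 0.33, limma adjusted p 0.874), and also in the interaction (−0.0078), where BIK had the highest (2.82, limma adjusted p 0.0987). Over both lines BCL2L2 had the highest difference (0.75, SE 0.53, limma adjusted p 0.407) and BCL2L12 the lowest (−0.44, SE 0.28, limma adjusted p 0.357), and between guides BMF the highest (1.06) and BCL2L12 the lowest (−0.57). The median of the 7 was 0.35 against −0.031 over all genes, and 0 of them passed over both lines or in the interaction.

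A list of 20 genes of the mitochondrial and caspase steps of apoptosis passed the filter whole, and in the same contrast 1 rose and 1 fell, or 2 of 20 against 25.9% of all genes. BIRC2 (cIAP1), a ubiquitin ligase that restrains cell death signalling, was at 8.11 and 8.05 FPKM with the Jeko guides and 20.8 and 18.4 with the Rec-1 guides (log2 difference 1.18, SE 0.16, limma adjusted p 0.0161). Its relative BIRC3 (cIAP2), an NF-κB target, was at 11.7 and 10.6 with the Jeko guides and 1.29 and 1.75 with the Rec-1 guides (−2.28, SE 0.18, limma adjusted p 0.00417), and it also passed the interaction (−2.17, adjusted p 0.0354 by limma), in which BIRC2 had the highest difference (1.06, limma adjusted p 0.138). The calls of BIRC2 and BIRC3 between the lines, and that of BIRC3 in the interaction, were each lost under at least 1 alternative processing. Between guides XIAP was highest (0.33) and VDAC1 lowest (−0.75), both with a limma adjusted p of 0.715. The median of the list was −0.026, near the −0.031 of all genes. APAF1, the scaffold of the apoptosome, was at 1.31 and 1.49 FPKM in the controls and 3.25, 2.69, 3.54 and 3.76 in the sgRNA libraries, higher in 4 of 4 (sgRNA minus control 0.84, SE 0.21, limma adjusted p 0.177). Both guides of a line were higher at 36.9% of tested genes in Jeko and at 41.8% in Rec-1. Over both lines 0 of the 20 passed, with DFFA highest (0.96, SE 0.26, limma adjusted p 0.180) and CASP6 lowest (−0.76, SE 0.23, adjusted p 0.200).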

How the data were processed

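RNA-seq of 6 libraries was analysed. The authors deposited 1 table of FPKM values, per the file headers, already scaled for depth and transcript length; TopHat and the build hg19 are named per the submitters' processing notes. The quantifier, annotation and strand setting are not given in the sources used here, and neither are fragment numbers, so no counting interval was computed. Relative depth came from the commonest ratio between libraries among genes under 0.05 FPKM (at least 10% of them sharing it): 0.872, 1.103, 1.1 and 0.687 of the Jeko control for Jeko sgRNA 1, Jeko sgRNA 2, the Rec-1 control and Rec-1 sgRNA 2; for Rec-1 sgRNA 1 none was found (0.712% shared it). Columns were matched by line and guide number.

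Values were tested as log2(FPKM + 1), which understates changes of low genes, with limma 3.58.1 in R 4.3.3 (mean-variance trend, Benjamini-Hochberg adjustment) on 11400 genes, those averaging 1 FPKM or more. An adjusted p under 0.05 was the threshold. The script was tested on simulated data. Annotation was GENCODE 44 on GRCh37; a symbol matched at 21477 rows. Further work used Python 3.11.15, pandas 2.3.3 and numpy 2.4.6. Alternatives were another pseudocount, filters, scaling, a transcript length adjustment, a guide block and leaving out each library. Members, lists and tests were chosen with earlier results of these data known. Genes named beside the members follow a rule: those of 3 lists that passed a test or had their list's highest or lowest difference in a comparison, the 3 protein-coding neighbours of BCL2L11 on each side and the 3 genes most like BCL2, BCL2L11 and BCL2A1. APAF1 and BAD were named after their values were seen, and 1 further gene that the rule names is not reported here.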

Additional observations from a re-analysis of the deposited data

Results flagged for a closer look

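Flagged were 3 members and NR4A1, by the interaction test or by guides of the 2 lines lying on opposite sides of their controls. Each flag uses the library labelled Rec-1 control, which stood with Jeko, so a different response of the lines is not shown. The share of all genes with guides on opposite sides was not computed. For BCL2 and NR4A1 the flag rests on the side alone. BCL2L11 had an interaction of 3.57 (SE 0.22, limma adjusted p 0.00809) and BCL2A1 of 2.55 (SE 0.34, adjusted p 0.0311 by limma), both near 0 in all 3 Jeko libraries and in the library labelled Rec-1 control. These 2 genes entered the test only through the Rec-1 sgRNA pair, so their p-values support nothing; with no filter they were 0.0197 and 0.0593 by limma. BCL2 was higher in both Jeko sgRNA libraries than in their control, by 0.25 and 1.13, and lower in both Rec-1 sgRNA libraries, by −0.96 and −2.10, with an interaction of −2.22 (SE 0.92) that did not pass (limma adjusted p 0.271). NR4A1 was lower in both Jeko sgRNA libraries (−0.52 and −0.36) and higher in both Rec-1 sgRNA libraries (1.17 and 0.12), and its interaction of 1.09 (SE 0.69) did not pass either (limma adjusted p 0.438).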

How the results depend on the processing

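Of 456 alternative values of tests of members and NR4A1, 415 kept direction and side of the threshold, 25 lost a call, 6 gained a call and 10 changed sign, 3 of them at NR4A1 and none in a comparison in which that gene had passed. Over both lines the 28 called genes became 12 with no filter, 0 among protein-coding genes alone (2169 at an unadjusted p under 0.05 by limma), 16 after length adjustment, and 11 (without Rec-1 sgRNA 1) to 2180 (without the Jeko control) with 1 library left out. Leave-one-out differences there ranged from −1.53 to 0.69 for BCL2, −0.70 to 0.0064 for MCL1, −0.66 to 0.18 for BAK1, −0.012 to 3.55 for BCL2L11, −1.77 to 0.0017 for PMAIP1, −0.69 to 0.079 for BID and −0.44 to 0.65 for NR4A1, which was −0.0041 after length adjustment. The interaction's 791 calls became 318 at a mean of 5 FPKM and 75 (without Jeko sgRNA 2) to 454 with a library left out, and the 2947 between lines 1549 and 803 (without Rec-1 sgRNA 1) to 2940; BID between lines ranged from −0.096 (without Jeko sgRNA 2) to 0.41 (without Jeko sgRNA 1). Between guides the 0 calls became 8 at a mean of 5 FPKM and 5 after length adjustment. The 346 Jeko genes became 580 with a pseudocount of 0.1, 206 after length adjustment, 1292 at 1.5-fold and 705 to 853 with 1 guide alone, and the 2651 Rec-1 genes 1698 at a mean of 5 FPKM and 4609 at 1.5-fold.

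The log2 ratio of pro- to anti-apoptotic FPKM was 1.74, 1.53, 1.61, 1.81, 1.10 and 1.65 in the Jeko control, sgRNA 1 and 2 and the Rec-1 control, sgRNA 1 and 2. Without MCL1 it was 2.52, 2.41, 2.19, 2.74, 2.17 and 2.97. The mean log2(FPKM + 1) of pro- minus that of anti-apoptotic genes was 0.54, 0.39, 0.0027, 0.49, 0.50 and 0.80. With BCL2L2, BOK, BAD, BIK, BMF and HRK added by role, the log2 ratio was 1.64 and 1.75 in Jeko sgRNA 1 and 2 and 1.57 in Rec-1 sgRNA 1, each below its own-line control. Rec-1 sgRNA 2 was then above the Rec-1 control, as it also was without MCL1 and from mean log2 levels. From mean log2 levels Rec-1 sgRNA 1, at 0.50, was also just above the Rec-1 control, at 0.49.

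Guides share a number but no stated source, and the deviations of same-numbered guides correlated at 0.0998. A replicate block on that number left 9 calls over both lines and 428 in the interaction, and limma adjusted p became 0.0557 for BCL2A1 in the interaction and, between lines, 0.0731 for BCL2, 0.0211 for PMAIP1, 0.0548 for E2F1 and 0.0610 for FBXW7. For BIRC3 in the interaction it became 0.0733. No leave-one-out fit was made between guides, which leaves no residual degrees of freedom, and the interaction cannot be estimated without a control. Depth is unknown and limits the values near 0.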

Other observations

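A list of 16 regulators of the family was examined beside it, all of which passed the filter. Between Rec-1 and Jeko sgRNA libraries 2 rose and 2 fell, or 4 of 16, where 25.9% of all genes were called. MYC, which sensitises cells to apoptosis, was at 586 and 416 FPKM with the Jeko guides and 195.6 and 139 with the Rec-1 guides (log2 difference −1.58, SE 0.29, limma adjusted p 0.0301), and E2F1 at 47.5 and 40.2 against 16.6 and 22.0 (−1.15, SE 0.23, limma adjusted p 0.0343). USP9X, a deubiquitinase that stabilises MCL1 protein, was at 6.65 and 6.83 FPKM against 13.1 and 13.2 (0.87, SE 0.15, limma adjusted p 0.0257). FBXW7, part of a ubiquitin ligase for MCL1 and MYC, was at 8.32 and 8.33 against 14.4 and 14.3 (0.72, SE 0.15, limma adjusted p 0.0384). Each of these 4 calls was lost under at least 1 alternative processing. The list's median was −0.16 against −0.031 over all genes.

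DDIT3 (CHOP), a stress transcription factor, had the lowest difference of this list over both lines (−1.92, SE 0.69, limma adjusted p 0.216). It was at 237 FPKM in the Jeko control, 21.2 in Jeko sgRNA 1 and 127 in Jeko sgRNA 2, and at 372 in the Rec-1 control, 108 in Rec-1 sgRNA 1 and 123 in Rec-1 sgRNA 2. In both lines guide 1 had the lower level, as for PMAIP1. Over both lines, 0 of the 16 passed limma's adjusted p and 6 had an unadjusted p under 0.05, as did 21.1% of all genes. Between guides DDIT3 was the highest of the list (1.36, SE 0.65, limma adjusted p 0.715). Over both lines FBXW7 was the highest (0.94, SE 0.26, limma adjusted p 0.180), and in the interaction MAPK3, a kinase that marks BCL2L11 protein for degradation, was the highest (1.202, limma adjusted p 0.284) and MYC the lowest (−2.10, limma adjusted p 0.112).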
